A study of Mus musculus with 16 samples.

Results

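The S-phase and DNA replication genes described here were 46 genes chosen by symbol and matched to the Ensembl identifiers of a table of 33072 genes. They were measured by RNA sequencing in 4T1 and 67NR cells, 2 cell lines that were established from the same spontaneous mammary carcinoma of a BALB/c mouse, of which 4T1 is metastatic and 67NR is non-metastatic. Each line was treated for 24 h with vehicle (DMSO) or with 15 µM CIX, an inhibitor of the cytosolic phospholipase A2α (cPLA2α), giving the groups 4T1 vehicle, 4T1 CIX, 67NR vehicle and 67NR CIX with 4 biological replicates each and 16 samples in all. Each line stands for 1 tumor cell line in culture. The culture medium of both lines held 10% serum, and the study does not state the serum during the 24 h treatment of these samples. The study asked how metastatic and non-metastatic cells respond when cPLA2α activity is lowered, and the questions here were how the replication genes differed between the untreated lines and how they responded to CIX in each of them.

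DNA replication starts at origins that are bound by the origin recognition complex, on which Cdc6 and Cdt1 load the MCM2-7 helicase in G1 phase. Cdc45 and the GINS proteins join MCM2-7 to make the active helicase, primase and polymerase α start each new strand, and polymerases δ and ε extend it while held by the sliding clamp PCNA. Most of these genes are transcribed at the transition from G1 to S phase under the E2F factors, so that their RNA is high in proliferating cells and low in arrested ones. In RNA from whole cultures, fewer cells in S phase and less RNA of these genes per cell cannot be told apart.

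Estimated counts summed to between 21715700 and 29450629 per sample, and levels are given as CPM, counts scaled to library size, after TMM normalization. The lowest level of a member in any sample, apart from Orc1, lay at 5.60 CPM, for E2f2, as compared to at most 0.138 CPM for the 3 counts taken as the smallest detectable level, a floor for counting error alone, as the reads had no molecular identifiers. All 46 genes passed the filter on low values in all comparisons. Differences were tested with limma-voom over all genes of a comparison, and p-values were adjusted by the Benjamini-Hochberg method. Genes below 0.001, the study's own limit, were called, and those below 0.05 are given beside them. The calls are not the study's own, which were more numerous in the metastatic line and include replication genes not called here. Of those genes, Cdt1 and Pola2 had limma-voom adjusted p-values of 0.00203 and 0.0078 in 4T1 cells. Over all tested genes, 1089 were called in 4T1 cells, and 2679 with all 16 samples in 1 fit. The cause of this gap was not tested. Krt8, Krt18, Epcam and Cdh1, markers of mammary epithelium, were at mean levels from 186.5 to 1202 CPM in the 4T1 groups, but from 0.0952 to 1.77 CPM in the 67NR groups, so that 67NR cells lacked the defining markers of their labelled tissue. Krt14, a basal marker, was at mean levels of at most 2.34 CPM in 4T1 and at most 0.020 CPM in 67NR groups. The 6 leukocyte and 4 endothelial markers had mean levels of at most 1.56 CPM in every group, and the macrophage marker Adgre1 was at 0.

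Compared per transcript length, as TPM, Pcna was the most abundant of the 46 transcripts with vehicle, at 630.0 ± 85.2 TPM in 4T1 and 572 ± 96.9 TPM in 67NR cells (SD, n = 4). In 4T1 cells Mcm7 (297 ± 12.3 TPM) and Mcm4 (197 ± 24.8 TPM) followed. These TPM are approximate and rest on the mean length of all annotated transcripts of a gene, on which the order depends. Mcm6 was at 209.9 to 307.2 CPM in the 4T1 vehicle samples and Mcm7 at 228.4 to 252.1 CPM, but their mean lengths were 2081 and 1068 bases. E2f2 was the lowest in both lines, at 5.03 ± 1.71 and 5.79 ± 1.79 TPM. The members also varied to different degrees between replicates: the coefficient of variation of Cdt1 over the 4T1 vehicle samples was 0.782%, and that of Mcm2 61.1%.

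Some samples stood apart from their group over the replication genes. Sample 4 of the 4T1 CIX group, sample 3 of the 4T1 vehicle group and sample 2 of the 67NR CIX group were each the highest of their 4 replicates in 36 of the 46 genes, whereas over all genes they were the highest in 34.8%, 33.9% and 30.0%, respectively. Sample 13 of the 67NR vehicle group was the lowest in 28 of the 46 genes and in 41.3% of all genes. The labels name no batch, and the part of these samples in the results is shown by the counts without them. For Mcm2, sample 13 of the 67NR vehicle group was at 684 CPM while its other 3 replicates lay between 201 and 226 CPM. For Orc1, sample 5 of the 67NR vehicle group was at 7.46 CPM and sample 10 of the 67NR CIX group at 0.640 CPM, far below the other replicates. Neither gene passed a threshold in any comparison.

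**Figure D1:**
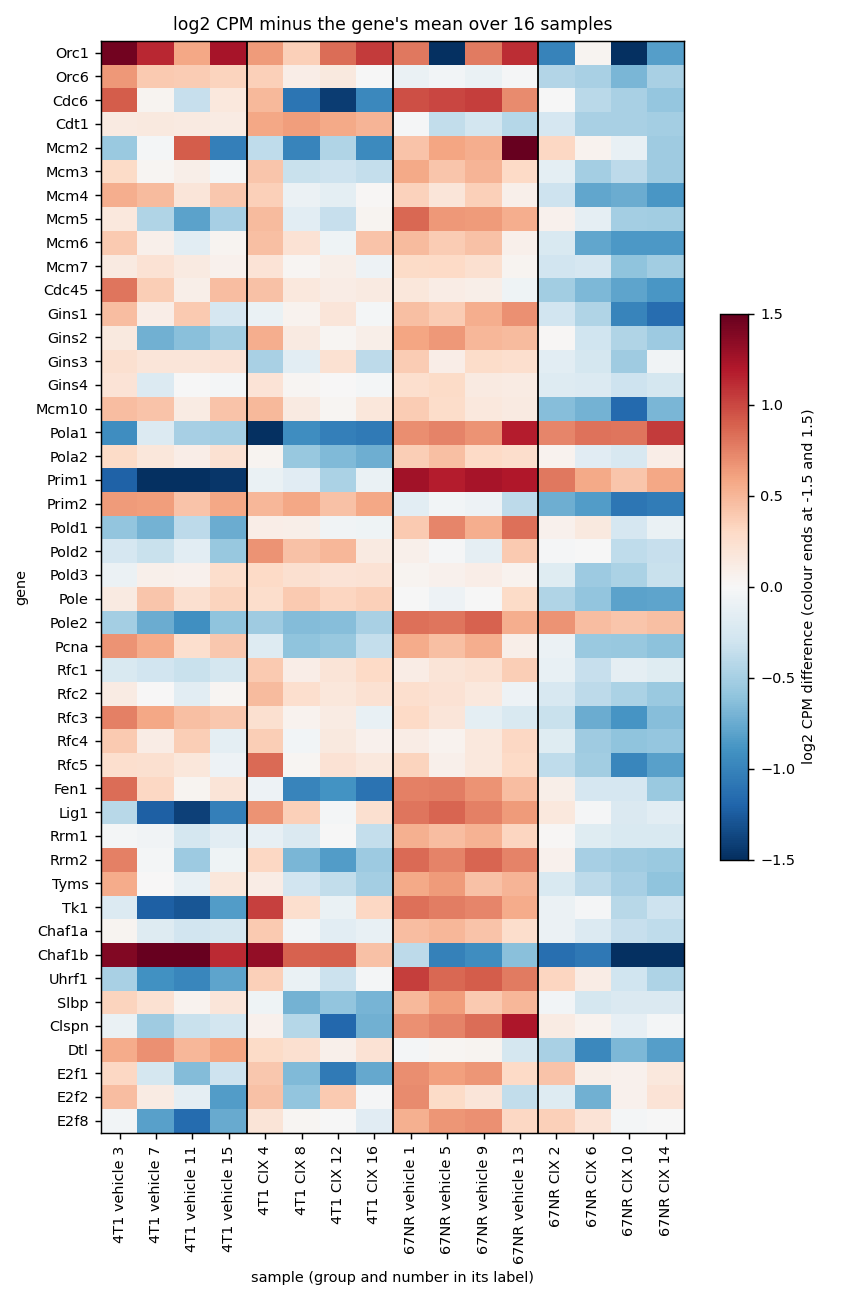
Heat map of the 46 genes (rows) in the 16 samples (columns, by group), with colour giving log2 CPM minus the mean of the gene over all samples. The 67NR CIX columns are blue in most rows as compared to the 67NR vehicle columns, and the first column of the 4T1 vehicle, 4T1 CIX and 67NR CIX groups (samples 3, 4 and 2) is the highest of its group in 36 of the 46 rows.

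In 67NR cells, CIX was accompanied by lower RNA of nearly all replication genes. At the threshold of 0.05, 38 of the 46 genes fell and 0 rose, whereas 9.26% of all tested genes fell and 8.51% rose. The log2 fold change was below 0 for 45 genes, with a median of -0.71 as compared to -0.0063 over all tested genes, and at an unadjusted p-value below 0.05 limma-voom gave 41 lower and 0 higher genes, with 16.9% and 16.0% of all tested genes. At the threshold of 0.001, Cdc6 and Tyms were called as lower and 0 genes as higher, against 0.208% and 0.182% of all tested genes. In 38 genes every CIX sample lay below every vehicle sample, and in 0 genes above, which was seen in 10.6% and 12.7% of all tested genes. The count at 0.001 depended on the test, as the Wald test of DESeq2 called 36 genes as lower and edgeR's quasi-likelihood test 1, both with 0 higher genes. These tests called 4.64% and 0.199% of all tested genes as lower, so that the background rose with the count. At 0.05 they gave 40 and 38 lower genes and 0 higher ones, with 11.6% and 9.23% of all tested genes lower. Without samples 2 and 13, 40 genes fell at 0.05 and 8 at 0.001, where 11.1% and 0.271% of all tested genes fell.

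**Figure D2:**
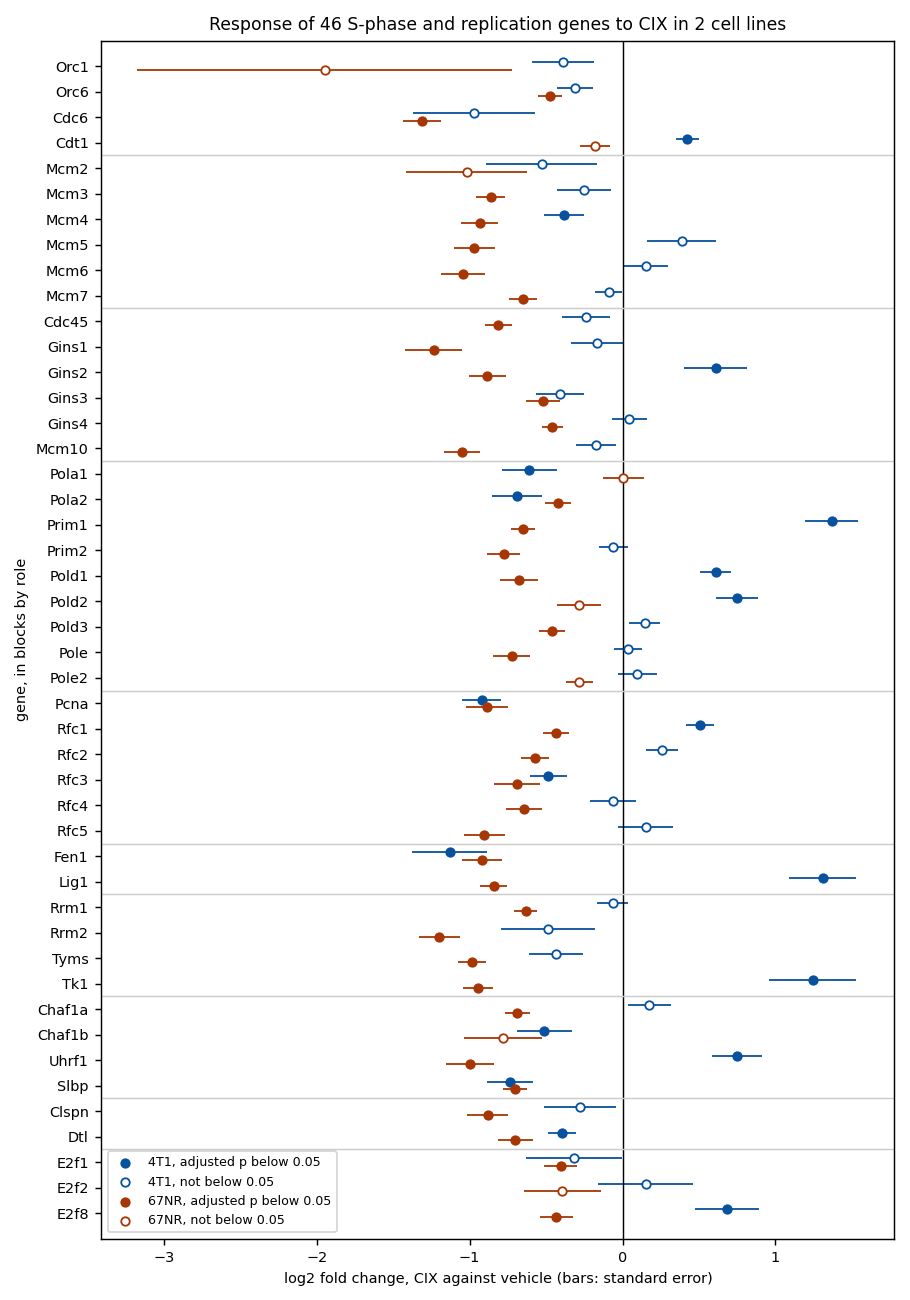
Log2 fold change between CIX and vehicle (horizontal axis) with its standard error for the 46 genes in blocks by role, in 4T1 (blue) and 67NR cells (orange), with filled points for limma-voom adjusted p-values below 0.05. In 67NR, 38 genes are filled and lie left of 0, whereas in 4T1 10 filled genes lie right and 9 left of it.

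Among the origin licensing factors, Cdc6, which helps to load the MCM helicase, was at 64.2, 66.0, 67.7 and 54.0 CPM in 67NR cells with vehicle and at 32.8, 24.9, 23.5 and 22.1 CPM with CIX. All CIX samples were below all vehicle samples, and the log2 fold change was -1.31 (standard error, SE, 0.13, limma-voom adjusted p = 7.88e-04). Orc6, a subunit of the origin recognition complex, fell by 0.47 on the log2 scale (limma-voom adjusted p = 0.00459). Cdt1, the partner of Cdc6, did not pass (-0.18, limma-voom adjusted p = 0.237), nor did Orc1. Cdc6 kept its place below 0.001 in 1 of the 8 fits without a sample, with log2 fold changes from -1.42 to -1.24.

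All 6 MCM2-7 genes had lower values, and the 5 other than Mcm2 fell at 0.05. The levels of Mcm6 were 326, 306, 318 and 247 CPM with vehicle and 200.1, 136, 129 and 129.5 CPM with CIX, where the highest CIX sample was sample 2. This was the largest decrease of the helicase genes that passed, at a log2 fold change of -1.04 (SE 0.15, limma-voom adjusted p = 0.0028). Mcm7 had the smallest, at -0.65 (SE 0.092, limma-voom adjusted p = 0.00288). The 6 genes for activation of the helicase also fell, from Gins1 at -1.24 and Mcm10 at -1.05 to Gins4 at -0.46. Gins1, a subunit of the GINS complex, was at 19.8, 18.9, 21.1 and 23.3 CPM with vehicle and at 11.9, 10.6, 7.27 and 6.55 CPM with CIX (limma-voom adjusted p = 0.00368).

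Of the 9 polymerase and primase genes, 6 fell at 0.05. Prim2, the large subunit of primase, had the largest decrease, at -0.78 on the log2 scale (limma-voom adjusted p = 0.00275), and the catalytic subunit Prim1 was at -0.65 (limma-voom adjusted p = 0.00173). Pola1, the catalytic subunit of polymerase α, was the gene without a lower value. It was at 125, 130.2, 124 and 175 CPM with vehicle and 129, 136, 135 and 160.2 CPM with CIX, and these ranges overlapped (0.0061 on the log2 scale, 95% interval from -0.25 to 0.26). Pold2 and Pole2, accessory subunits of polymerases δ and ε, did not pass either, at -0.28 and -0.28.

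The clamp Pcna and the 5 subunits of its loader, Rfc1 to Rfc5, all fell, with log2 fold changes from -0.90 for Rfc5 to -0.44 for Rfc1. Fen1 and Lig1, the flap endonuclease and the ligase that finish Okazaki fragments, fell by 0.92 and 0.84 on the log2 scale. So did all 4 genes for the supply of nucleotides. Tyms, the thymidylate synthase, was at 87.3, 92.3, 80.2 and 83.8 CPM with vehicle and at 50.3, 45.1, 41.9 and 38.8 CPM with CIX. The groups did not overlap, and the log2 fold change was -0.98 (SE 0.092, limma-voom adjusted p = 7.88e-04), below 0.001 in 1 of the 8 fits without a sample. Thymidine kinase Tk1 followed with -0.95 (SE 0.097, limma-voom adjusted p = 0.00109), and Rrm2, the small subunit of ribonucleotide reductase, had the largest decrease of the 4 at -1.20 (limma-voom adjusted p = 0.00128).

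Uhrf1, which recruits the maintenance methyltransferase to new DNA, was at 345, 307, 318 and 289.8 CPM with vehicle and 210.3, 182, 137 and 123 CPM with CIX, or -0.998 on the log2 scale (limma-voom adjusted p = 0.00424). Chaf1a, a subunit of the chromatin assembly factor, and Slbp, which binds histone mRNA, fell by 0.69 and 0.70 on the log2 scale, whereas Chaf1b, with a value of -0.78, did not pass (limma-voom adjusted p = 0.0639). The fork checkpoint gene Clspn and the ubiquitin ligase receptor gene Dtl fell by 0.88 and 0.70. Of the groups by role, the E2F factors had the median nearest to 0, at -0.40. E2f1, an activator, was at 90.3, 85.4, 87.9 and 68.5 CPM with vehicle and at 74.7, 59.0, 58.1 and 62.0 CPM with CIX. These ranges overlapped, and its log2 fold change of -0.40 passed only 0.05 (limma-voom adjusted p = 0.0307), as did that of the repressor E2f8 (-0.43, limma-voom adjusted p = 0.0257). E2f2 was low, at 16.3, 12.2, 11.4 and 7.77 CPM with vehicle and 8.78, 6.09, 10.5 and 11.6 CPM with CIX, and did not pass (limma-voom adjusted p = 0.313).

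In 4T1 cells the replication genes did not move together. At 0.05, 10 of the 46 genes rose and 9 fell, that is 21.7% and 19.6%, close to the 21.9% and 20.8% of all tested genes. The median log2 fold change was -0.077 as compared to -0.0069 over all tested genes. At 0.001, Prim1 was called as higher and Pcna as lower, where 5.35% of all tested genes were higher and 3.99% lower. All CIX samples lay above all vehicle samples in 9 genes and below them in 6, where this held for 21.2% and 18.8% of all tested genes. Without samples 3 and 4, 12 genes rose and 14 fell at 0.05 (24.7% and 21.9% of all tested genes), and 6 were called at 0.001 (7.14%). Without sample 4 alone 14 fell at 0.05, and the share of all tested genes is not given for that fit.

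Prim1 had the largest increase. It was at 19.4, 12.9, 11.7 and 16.4 CPM in 4T1 cells with vehicle and at 41.9, 40.0, 32.4 and 42.0 CPM with CIX. Each CIX sample lay above each vehicle sample, and the level rose 2.58-fold, a log2 fold change of 1.37 (SE 0.17, limma-voom adjusted p = 3.75e-04). Its partner Prim2 was at 54.4, 54.1, 47.0 and 52.5 CPM with vehicle and 49.6, 52.5, 47.4 and 52.5 CPM with CIX, and did not pass (-0.059, limma-voom adjusted p = 0.644). The subunits of polymerase α had the opposite direction to Prim1, with log2 fold changes of -0.61 for Pola1 and -0.69 for Pola2 (limma-voom adjusted p = 0.0206 and 0.0078). Pold1 and Pold2 of polymerase δ rose by 0.61 and 0.75 (limma-voom adjusted p = 0.00158 and 0.00237), so that the 9 polymerase and primase genes were divided into 3 that rose, 2 that fell and 4 that did not pass.

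Both directions were also seen within the maturation of Okazaki fragments. Lig1 was at 78.8, 45.0, 39.9 and 51.9 CPM with vehicle and at 168, 135, 103 and 125 CPM with CIX. The groups did not overlap, and the log2 fold change was 1.31 (SE 0.22, limma-voom adjusted p = 0.00147). Fen1 was at 113, 78.6, 65.5 and 72.3 CPM with vehicle and at 60.1, 31.8, 34.0 and 29.5 CPM with CIX, with no overlap in the other direction and a log2 fold change of -1.13 (SE 0.25, limma-voom adjusted p = 0.00531). In the clamp group, Pcna was at 488, 451, 366 and 404 CPM with vehicle and 267, 201, 207 and 239.5 CPM with CIX, and fell by 0.92 on the log2 scale (SE 0.13, limma-voom adjusted p = 5.64e-04), whereas Rfc1, the large subunit of its loader, rose by 0.51 (limma-voom adjusted p = 0.00207) and Rfc3 fell by 0.49 (limma-voom adjusted p = 0.0101). Without a sample in turn, Prim1 was called in 3, Pcna in 2 and Lig1 in 1 of 8 fits.

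Tk1 was at 75.8, 37.4, 35.9 and 49.2 CPM with vehicle and 179, 104, 82.0 and 109 CPM with CIX. Samples 3 and 4 were the highest of their groups, and the groups did not overlap (1.24 on the log2 scale, SE 0.29, limma-voom adjusted p = 0.00712). Rrm1, Rrm2 and Tyms had values from -0.49 to -0.066 and did not pass. Uhrf1 rose by 0.75 (limma-voom adjusted p = 0.00534), Slbp and Chaf1b fell by 0.73 and 0.51, and Dtl fell by 0.39. Of the licensing and helicase genes, Cdt1 rose by 0.42 (limma-voom adjusted p = 0.00203), Gins2 rose by 0.61 (limma-voom adjusted p = 0.0372) and Mcm4 fell by 0.38 (limma-voom adjusted p = 0.0414), while the 13 others of these roles did not pass. Cdc6 was at 62.0, 34.0, 26.0 and 36.8 CPM with vehicle and 46.1, 15.4, 12.3 and 16.9 CPM with CIX, so that the groups overlapped in sample 4 (-0.97, limma-voom adjusted p = 0.0769). In the order of the sample numbers each CIX value lay below the vehicle value of the same place, but the labels pair no samples.

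Of the E2F factors, E2f8 rose at 0.05 in 4T1 cells and the other two did not pass, with differences between the 3 genes not tested. E2f8 was at 72.9, 42.5, 33.7 and 44.4 CPM with vehicle and 85.8, 76.1, 74.5 and 66.3 CPM with CIX, or 0.68 on the log2 scale (SE 0.21, limma-voom adjusted p = 0.0261). E2f1 was at 69.2, 46.5, 35.3 and 44.9 CPM with vehicle and at 73.7, 35.2, 26.6 and 32.6 CPM with CIX. Sample 4 was above all vehicle samples and the other CIX samples were below all vehicle samples, and the value of -0.32 did not pass (limma-voom adjusted p = 0.441). E2f2, at 13.8, 10.9, 9.15 and 5.60 CPM with vehicle and 13.6, 6.67, 13.2 and 9.92 CPM with CIX, did not pass either (limma-voom adjusted p = 0.72), and its sign turned with sample quality weights or without sample 15.

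**Figure D3:**
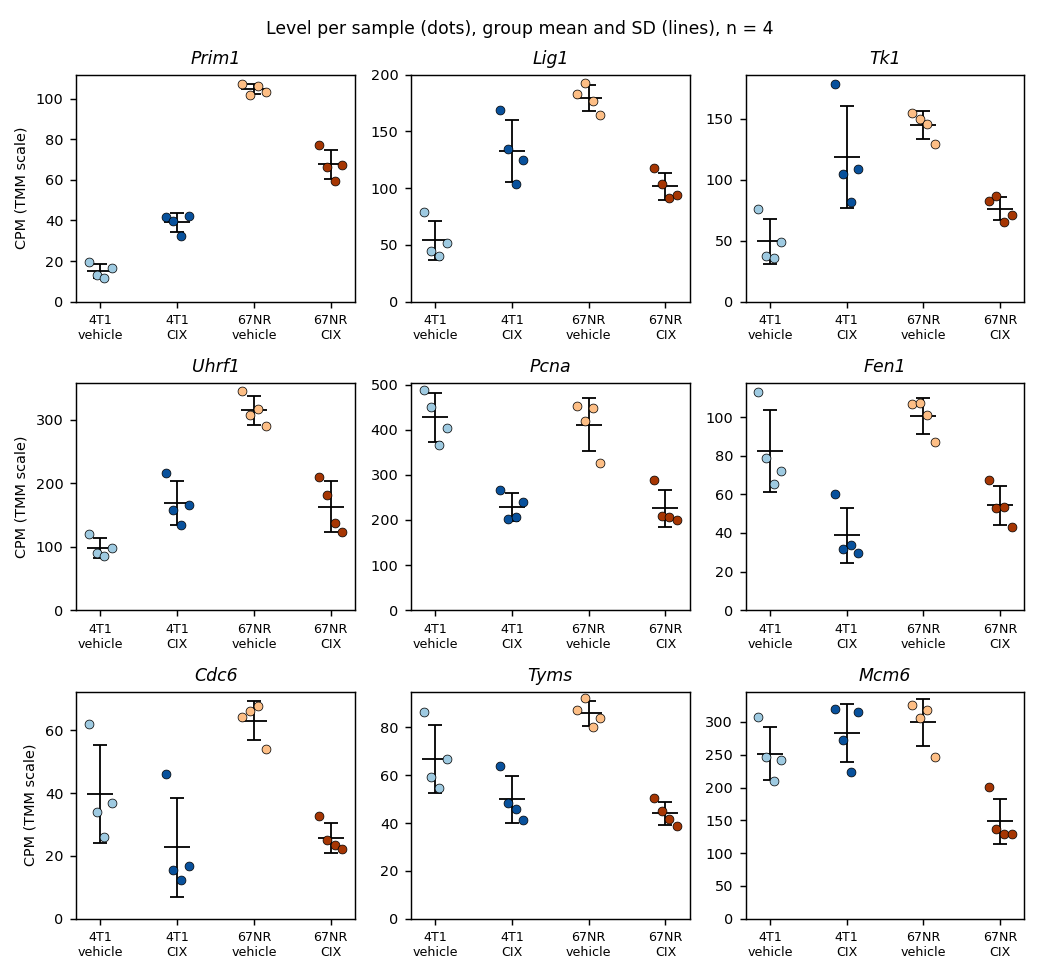
CPM (vertical axis, linear from 0) of 9 replication genes in each sample (points), with the mean and SD of each group (lines, n = 4). Prim1, Lig1, Tk1 and Uhrf1 are higher with CIX in 4T1 and lower with CIX in 67NR, Pcna and Fen1 are lower with CIX in both lines, and Cdc6, Tyms and Mcm6 passed 0.05 in 67NR and not in 4T1, of which Mcm6 had a called difference between the lines.

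The calls at 0.05 in both lines, which share no samples, divided the 46 genes. Gins2, Prim1, Pold1, Rfc1, Lig1, Tk1, Uhrf1 and E2f8, 8 genes in all, rose in 4T1 and fell in 67NR cells, and 7 genes (Mcm4, Pola2, Pcna, Rfc3, Fen1, Slbp and Dtl) fell in both. A further 23 fell in 67NR and did not pass in 4T1, while Cdt1 and Pold2 rose and Pola1 and Chaf1b fell in 4T1 without passing in 67NR. The 4 genes that passed in neither line were Orc1, Mcm2, Pole2 and E2f2. The shares of all tested genes in these classes were not counted. In 4T1, 21.7% of the 46 genes rose and 19.6% fell, near the 21.9% and 20.8% of all tested genes. The division is thus a description of the calls and was not tested.

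The difference of the responses was tested with the interaction term over all 16 samples, as the log2 fold change in 4T1 minus that in 67NR. It was above 0 in 41 of the 46 genes, with a median of 0.60 as compared to -0.019 over all tested genes. At 0.001, 10 genes were called with a positive difference, 21.7% of the 46, and 0 with a negative one, where 4.81% and 3.05% of all tested genes were called. At 0.05 the counts were 27 and 1, with 15.1% and 14.2% of all tested genes, and at an unadjusted p-value below 0.05 limma-voom gave 30 and 1, with 19.5% and 19.7% of all tested genes. The quasi-likelihood test of edgeR called 8 positive and 0 negative differences at 0.001, and the Wald test of DESeq2 21 and 0, where 4.74% and 8.62% of all tested genes had a called positive difference. The single negative difference at 0.05 was that of Pola1 (-0.62, limma-voom adjusted p = 0.049), which edgeR did not call.

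The largest differences were those of Tk1, Lig1, Prim1 and Uhrf1. Tk1 differed by 2.19 on the log2 scale (SE 0.32, limma-voom adjusted p = 1.48e-04), Lig1 by 2.15 (0.25, limma-voom adjusted p = 2.12e-05), Prim1 by 2.02 (0.18, limma-voom adjusted p = 4.74e-06) and Uhrf1 by 1.75 (0.24, limma-voom adjusted p = 7.77e-05). Of the other called genes, Gins2 followed with 1.49, Pold1 with 1.28, Mcm6 with 1.19, Rfc1 with 0.94, Rfc2 with 0.83 and Pole, the catalytic subunit of polymerase ε, with 0.76. Tk1, Lig1, Prim1, Uhrf1, Pold1 and Rfc1 were called in each of the 16 fits without a sample, Gins2 in 10, Rfc2 in 9, Mcm6 in 4 and Pole in 2. Pcna, Fen1 and Slbp, which fell in both lines, had differences of -0.036, -0.21 and -0.033, with 95% intervals from -0.42 to 0.35, from -0.79 to 0.36 and from -0.37 to 0.30. Each interval holds differences in either direction, as did those of Pola2 and Rfc3. Mcm4, which also fell in both lines, fell less in 4T1, with a difference of 0.55 (limma-voom adjusted p = 0.0357), and Dtl, at 0.30, did not pass (limma-voom adjusted p = 0.129).

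The untreated lines were compared in the vehicle samples, which also serve as controls of the responses above. At 0.001, 14 of the 46 genes were lower in 4T1 than in 67NR cells and 3 were higher, that is 30.4% and 6.52%, where 19.6% of all tested genes were lower and 20.4% higher. At 0.05 the counts were 21 and 6, with 34.1% and 33.3% of all tested genes. The 17 calls at 0.001 became 11 without sample 1. With limma on log2(TPM + 1), 8 of the 46 genes were called as lower and 4 as higher. In that setting 16.4% of all tested genes were lower and 22% higher, so that the count of lower genes was near its background. Without a sample in turn, Chaf1a was called in 2, Rfc1 in 4, Dtl in 6 and Prim2 in 7 of 8 fits. The median log2 fold change was -0.32 as compared to -0.010 over all tested genes.

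Prim1 had the largest difference, with 19.4, 12.9, 11.7 and 16.4 CPM in the 4T1 vehicle samples and 107, 102, 106 and 103 CPM in the 67NR vehicle samples. All 4T1 samples lay far below, 7.10-fold on average, and the log2 fold change was -2.83 (SE 0.14, limma-voom adjusted p = 4.59e-07). Lig1 (-1.79), Uhrf1 (-1.70), Tk1 (-1.62), Pole2 (-1.47) and Pola1 (-1.37) were the next of the lower genes, with limma-voom adjusted p-values of at most 1.12e-04. Pold1, E2f8, Clspn, Mcm5, Gins2, Rrm1, Chaf1a and Rfc1 were also lower, by log2 values from -1.24 to -0.51. Among the called genes that were higher in 4T1, Chaf1b was at 79.7, 85.9, 88.0 and 66.5 CPM in 4T1 and 23.2, 15.1, 16.0 and 19.7 CPM in 67NR cells. It differed by 2.11 (SE 0.15, limma-voom adjusted p = 2.99e-06), whereas its partner Chaf1a was lower in 4T1 at -0.60. Prim2 and Dtl were higher by 0.72 and 0.63, so that the 2 subunits of primase also differed in opposite directions. E2f1 was lower at 0.05 only (-0.81, limma-voom adjusted p = 0.00401), and E2f2 did not pass (-0.32).

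**Figure D4:**
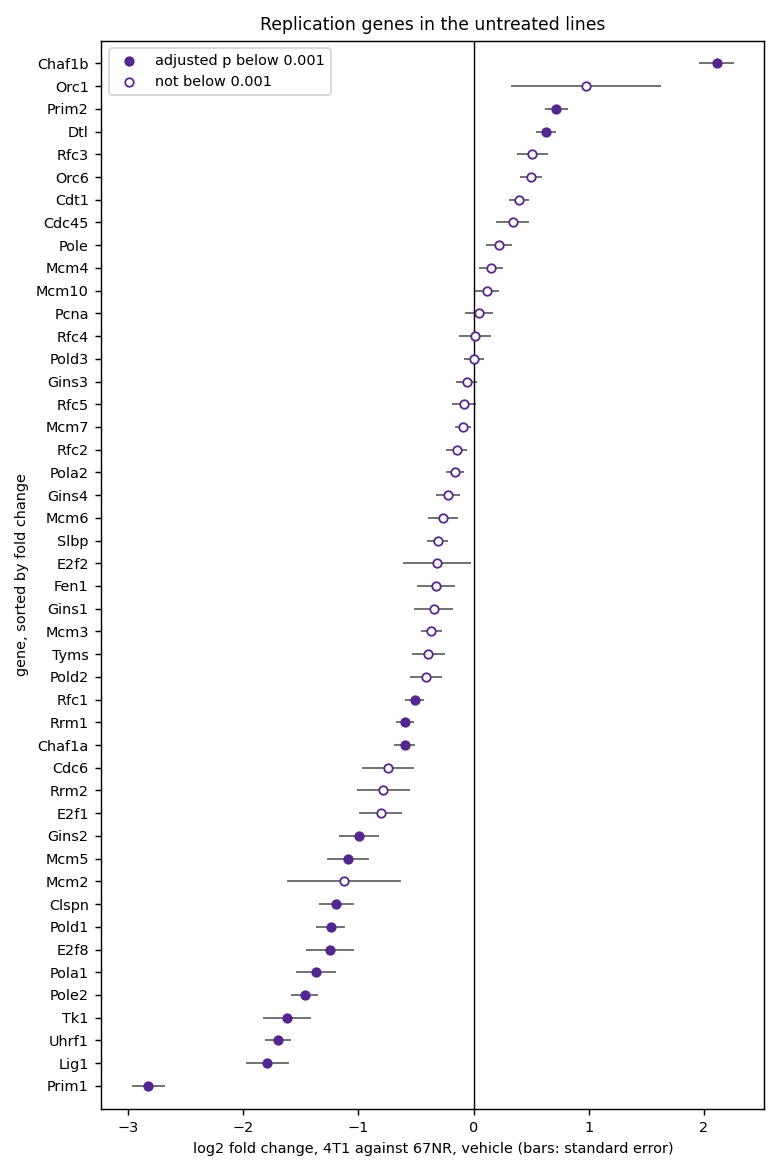
Log2 fold change between 4T1 and 67NR cells with vehicle (horizontal axis) with its standard error for the 46 genes, sorted, with filled points for limma-voom adjusted p-values below 0.001. The 14 filled points to the left range from Prim1 at -2.83 to Rfc1 at -0.51, and the 3 to the right are Dtl, Prim2 and Chaf1b.

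Among the genes that were lower in untreated 4T1 cells, those with the largest differences, Prim1, Lig1, Uhrf1 and Tk1, were also the 4 with the largest differences of the response. Chaf1b, which was higher in 4T1 and had the largest difference between the untreated lines after Prim1, had a difference of the response of 0.27 that did not pass (limma-voom adjusted p = 0.581). As the 4T1 and 67NR vehicle samples enter both comparisons, this is given as values side by side and not as a relation. With CIX, the mean level of Prim1 was 39.1 ± 4.54 CPM in 4T1 and 67.7 ± 7.28 CPM in 67NR cells (SD, n = 4), after 15.1 ± 3.48 and 105 ± 2.46 CPM with vehicle. Lig1 went from 53.9 ± 17.3 to 133 ± 27.1 CPM in 4T1 and from 179 ± 11.6 to 102 ± 11.8 CPM in 67NR, so that 4T1 cells had the higher mean of both lines with CIX and the lower with vehicle. Tk1 had the same order, at 49.6 ± 18.5 and 119 ± 41.9 CPM in 4T1 and 145 ± 11.1 and 76.3 ± 9.78 CPM in 67NR. For Uhrf1 the means with CIX were 169 ± 34.5 CPM in 4T1 and 163 ± 40.4 CPM in 67NR, within the spread of the replicates.

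Other genes of replication and of the cell cycle were taken from lists outside the 46, and their counts at 0.05 are to be read against the 9.26% lower and 8.51% higher of all tested genes in 67NR and the 20.8% and 21.9% in 4T1. Of 36 further genes of the replication machinery, 18 fell and 1 rose in 67NR cells at 0.05, with a median of -0.50, and 4 fell and 8 rose in 4T1 cells. In 67NR cells Recql4, a helicase of replication initiation, was called as lower (-0.86 on the log2 scale), and Pold4, the smallest subunit of polymerase δ, as higher (0.67). In 4T1 cells, Dna2, a nuclease that trims flaps, was called as lower (-1.51). Of 24 genes for nucleotide synthesis, 10 fell and 1 rose in 67NR, while 6 fell and 5 rose in 4T1, with Dck and Samhd1 called as lower in 4T1 (-1.26 and -0.88). Of the G1/S regulators, 13 of 27 fell and 1 rose in 67NR, whereas in 4T1 8 of 26 rose and 6 fell, with Rbl2, Rbl1 and Tfdp2, partners of the E2F factors, called as higher at 1.58, 1.22 and 1.22. Cyclin E2 (Ccne2) had values of -2.00 in 4T1 and -1.05 in 67NR and fell in both at 0.05.

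Of the 30 genes of G2 phase and mitosis, 18 rose and 0 fell at 0.05 in 4T1 cells and 12 did not pass, with a median over the 30 of 0.54. At an unadjusted p-value below 0.05 limma-voom gave 23 higher and 0 lower (25.9% and 25.3% of all tested genes), and edgeR and DESeq2 each 20 and 0 at 0.05, where they gave 21.9% and 23.5% of all tested genes as higher. Cdc25b, Bub1b and Kif2c had the largest values of those called (1.49, 1.38 and 1.34). In 67NR cells 15 of these genes fell and 0 rose at 0.05. At an unadjusted p-value below 0.05 limma-voom gave 23 lower and 0 higher there, with 16.9% and 16% of all tested genes. By edgeR and DESeq2 15 and 19 were lower at 0.05 and 0 higher, where 9.23% and 11.6% of all tested genes were lower. The difference of the response was positive and called at 0.001 for 16 of the 30, where this held for 4.81% of all tested genes, so that positive differences were also called in this list outside the 46 genes. Of 15 DNA damage checkpoint genes, 5 fell and 1 rose in 67NR, and 3 fell and 3 rose in 4T1. In 4T1 cells the shares of these checkpoint genes and of the nucleotide synthesis genes were near those of all tested genes.

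**Figure D5:**
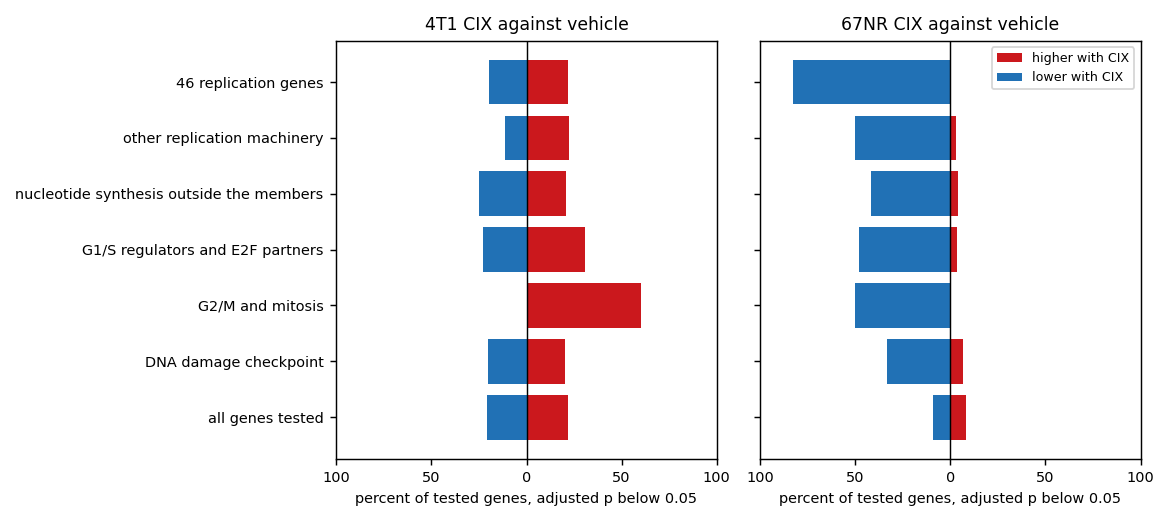
Percent of the tested genes of each list with limma-voom adjusted p-values below 0.05 that were higher (red, right) or lower with CIX (blue, left), in 4T1 and 67NR cells, with all tested genes at the bottom. In 67NR the blue bar of the 46 replication genes reaches 82.6% where that of all genes reaches 9.26%, and in 4T1 their bars are as long as those of all genes.

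As 38 of the genes fell together in 67NR cells, their promoters were searched for the letters of E2F sites. RefSeq promoter sequences of the GRCm38.p6 build, from 250 bases before to 50 bases after the start site, were matched for 39 of the 46 genes, and Mcm4, Gins1, Gins2, Gins4, Prim2, Pole and Rfc2 were not matched. E2F sites were taken as TTTCCCGC, TTTGGCGC, TTTCGCGC or TTTGCCGC on either strand. They were found for 18 of the 39 genes (46.2%), as compared to 2.26% of all 32851 promoters and 2.60% of the 27025 genes with a promoter. The letters CCAAT were found for 64.1% of the 39 genes, 41.1% of the genes with a promoter and in 37.4% of all promoters, and the CHR letters TTTGAA or TTCGAA for 23.1%, 21.7% and in 19.2%. Of the 25 mitotic genes with a promoter, 4.00% held E2F letters and 80.0% CHR letters. E2F letters on opposite strands can overlap each other, the other motifs were counted separately, and a match is a description of the sequence and not of binding.

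The sequences printed here are the 200 bases before the RefSeq start site, 5′ to 3′ on the strand of the gene, with E2F letters in capitals. This site can differ from the gene start in GENCODE M21. By the bounds given there, the stretch of Cdc6 lies within the gene, and those of Prim1 and Pcna lie partly within it. Sequence outside the RefSeq windows was not searched. They are shown for Cdc6, Mcm5 and Mcm6, which fell in 67NR and hold E2F letters, and for Prim1 and Pcna, the genes called in 4T1, which hold none in the window. Cdc6 lies at chr11:98907951-98908150 (plus strand), Mcm5 at chr8:75109309-75109508 (plus), Mcm6 at chr1:128359706-128359905 (minus), Prim1 at chr10:128015015-128015214 (plus) and Pcna at chr2:132253181-132253380 (minus strand).
Cdc6: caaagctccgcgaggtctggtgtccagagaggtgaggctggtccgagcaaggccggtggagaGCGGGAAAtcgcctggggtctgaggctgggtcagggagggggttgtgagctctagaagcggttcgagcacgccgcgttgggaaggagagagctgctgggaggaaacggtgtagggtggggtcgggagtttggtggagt
Mcm5: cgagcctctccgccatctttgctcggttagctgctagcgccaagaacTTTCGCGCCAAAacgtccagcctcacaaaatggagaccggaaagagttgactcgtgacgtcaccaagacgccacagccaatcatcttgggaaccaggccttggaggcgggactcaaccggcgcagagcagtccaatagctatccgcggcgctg
Mcm6: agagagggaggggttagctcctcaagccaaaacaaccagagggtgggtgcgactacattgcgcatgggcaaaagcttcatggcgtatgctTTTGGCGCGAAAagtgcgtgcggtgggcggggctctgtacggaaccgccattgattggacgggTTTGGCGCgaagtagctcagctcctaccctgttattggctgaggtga
Prim1: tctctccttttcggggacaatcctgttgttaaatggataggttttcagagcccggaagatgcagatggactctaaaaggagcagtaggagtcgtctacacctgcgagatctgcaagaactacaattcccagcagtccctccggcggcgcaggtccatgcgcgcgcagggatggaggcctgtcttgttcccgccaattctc
Pcna: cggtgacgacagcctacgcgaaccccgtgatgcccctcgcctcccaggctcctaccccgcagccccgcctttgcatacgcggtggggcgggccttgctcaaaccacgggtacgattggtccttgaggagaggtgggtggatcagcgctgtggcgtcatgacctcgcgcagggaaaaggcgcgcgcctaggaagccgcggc

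Mcm6 holds 3 matches and Mcm5 holds 2, some of them overlapping in a single run of capitals, and Cdc6 holds 1 on the opposite strand. Of the 18 genes with E2F letters 13 fell in 67NR at 0.05, with a median log2 fold change of -0.70, and of the 21 without them 18 fell, also with a median of -0.70. In 4T1 cells 4 of the 18 rose and 3 fell and 5 of the 21 rose and 5 fell. These counts are a description and were not tested.

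Some reads could have been assigned to a pseudogene or a related gene in place of the member, since their words of 31 bases also occur in transcripts of another gene. This share was 26.8% for Mcm7 (mainly Gm5487), 24.2% for Uhrf1 (Gm5648), 23.3% for Pcna (Pcna-ps2), 12.0% for Rrm2, 10.7% for Pole2, 9.82% for Tyms, 9.15% for Rfc5, 8.78% for Cdc6 (Gm9430), 5.49% for Pold3 and Slbp and 5.26% for Mcm4, and below 5% for the others. It is a share of the distinct words over all transcripts of a gene and not of its reads. The part of the reads that was wrongly assigned was not measured. For the other called genes, Prim1 (ENSMUSG00000025395) lies on chromosome 10 of GRCm38 from 128015168 to 128030037, Lig1 (ENSMUSG00000056394) on chromosome 7 from 13277283 to 13311433 and Tk1 (ENSMUSG00000025574) on chromosome 11 from 117815526 to 117826092.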

How the data were processed

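RNA of 16 samples, 4 per group, was sequenced by the authors from stranded poly(A) libraries. Per the study's methods, reads were quantified with salmon on Ensembl GRCm38 and summed to genes with tximport, and the authors deposited estimated counts per gene without normalization (0.0436% of the values above 0 were whole numbers within 1e-6). The submitters' processing notes name Salmon 0.12. The scaling option of tximport is not given in the sources used here. All 16 columns of the table were mapped to samples by the number in the sample title, and 32832 of 33072 genes were found in the GENCODE M21 annotation.

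Rounded counts were used for all tests. An approximate TPM came from the estimates and the mean transcript length, and a gene was dropped where it lay below 1 TPM in over 3 samples of the comparison (for the interaction only if in both lines), which left 11659 genes in 4T1, 11560 in 67NR, 12605 for the interaction and 11040 for the vehicle samples. Testing used TMM normalization and limma-voom (limma 3.58.1, edgeR 4.0.16, R 4.3.3), with Benjamini-Hochberg adjustment over all genes tested. DESeq2 1.42.0 was an alternative. The code was tested on simulated data. Replicates are biological per the study, and each pair differed by a chi-square of at least 18.0 per gene.

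The members, the other lists and the roles were chosen with earlier results of these data known. Genes were named if called with the largest changes in a comparison, if extreme in their role, or if they were an E2F member, and up to 3 called genes per direction of the other lists. Ccne2 and the sequences shown were chosen after their values were seen. Alternatives were edgeR's quasi-likelihood test, DESeq2, size factors of DESeq2, library size alone, no filter, filterByExpr, all samples in 1 fit, sample quality weights, log2(TPM + 1), a threshold of 0.05 and leaving out each sample. Leaving out samples 3 and 4 or samples 2 and 13 together, a block of 4 consecutive sample numbers, and the counts by direction at 0.05, were added after seeing the data.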

Additional observations from a re-analysis of the deposited data

Results flagged for a closer look

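The 4 values of each of the 46 genes in each of the 4 groups were compared by Dixon's ratio, and in 18 of 184 groups the highest or lowest sample was beyond the critical value at 95%, where chance alone flags about 1 in 20, or 9.2 groups. Sample 4 of the 4T1 CIX group was far above its other replicates in 7 genes. It held Cdc6 at 46.1 CPM (others 12.3 to 16.9), Mcm3 at 293 CPM (others 171 to 176), Cdc45 at 94.9 CPM (others 76.0 to 78.2), Gins2 at 37.2 CPM (others 25.9 to 27.8), Pola2 at 112 CPM (others 65.5 to 73.2), Fen1 at 60.1 CPM (others 29.5 to 34.0) and Slbp at 88.7 CPM (others 56.5 to 61.3). Sample 2 of the 67NR CIX group was far above the others in 6 genes. It held Cdt1 at 108 CPM (others 90.6 to 91.8), Mcm6 at 200.1 CPM (others 129 to 136), Pole2 at 47.5 CPM (others 39.9 to 41.0), Pcna at 288 CPM (others 201 to 209), Rfc4 at 30.6 CPM (others 22.7 to 24.0) and Rrm2 at 123 CPM (others 79.9 to 83.5). Sample 13 of the 67NR vehicle group was far above the others in 3 genes. It held Mcm2 at 684 CPM (others 201 to 226), Pola1 at 175 CPM (others 124 to 130.2) and Pole at 92.5 CPM (others 71.6 to 75.1). Sample 11 of the 4T1 vehicle group was below the others for Mcm10 at 48.1 CPM (others 59.5 to 61.3). Sample 10 of the 67NR CIX group was below the others for Mcm10 at 19.7 CPM (others 27.0 to 28.5). The 13 values of samples 4 and 2 concern samples that were also the highest of their groups in most of the 46 genes. What sets these samples apart was not tested.

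The response to CIX differed between 4T1 and 67NR cells, by the interaction term of limma-voom at an adjusted p-value below 0.001, in 10 of the 46 genes. The difference, 4T1 minus 67NR on the log2 scale, was 2.19 for Tk1, 2.15 for Lig1, 2.02 for Prim1, 1.75 for Uhrf1, 1.49 for Gins2, 1.28 for Pold1, 1.19 for Mcm6, 0.94 for Rfc1, 0.83 for Rfc2 and 0.76 for Pole.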

How the results depend on the processing

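At the threshold of 0.001, 2 genes were called in 4T1, 2 in 67NR, 10 in the interaction and 17 between the vehicle samples. The Wald test of DESeq2 gave 13 in 4T1, 36 in 67NR and 21 in the interaction, with 26.6%, 9.00% and 15.7% of all tested genes called, and sample quality weights gave 12, 22 and 21, with 21.6%, 2.14% and 15.2%. With all 16 samples in 1 fit, 11 were called in 4T1 (23.0% of all tested genes) and 10 in 67NR (1.31%). In 4T1 the larger counts were thus near the background of their settings. In 67NR edgeR and limma on log2(TPM + 1) each called 1. At 0.05 the counts were 19, 38, 28 and 27. Without samples 3 and 4, 6 were called in 4T1, and without samples 2 and 13, 8 in 67NR. Leaving out each sample in turn gave 0 to 5 genes in 4T1 (5 without sample 4, and 0 without sample 7, 8, 15 or 16), 0 to 7 in 67NR (7 without sample 2, and 0 without any other), 6 to 12 in the interaction (6 without sample 1, 5, 7, 10 or 14) and 11 to 20 between the vehicle samples (11 without sample 1). Over all tested genes these fits called 287 to 1051 in 4T1 (287 to 411 without sample 7, 8, 15 or 16), as compared to 1089 with all samples, and 0 to 70 in 67NR (70 without sample 2, 15 without sample 13 and 2 or 0 without any other), as compared to 45. In the interaction the fits without 1 sample called 650 to 1066 of all tested genes (650 to 705 without sample 1, 5, 7, 10 or 14), as compared to 991. Between the vehicle samples they called 4098 to 4909 (4310 without sample 1), as compared to 4420. The cause was not tested. By direction at 0.05, 36 to 40 genes fell in 67NR without 1 sample, 23 to 30 were positive in the interaction, and in 4T1 8 to 11 rose and 6 to 14 fell (14 without sample 4, as without samples 3 and 4). Without samples 3 and 4, 21.9% of all tested genes fell. For the fits without 1 sample the shares of all tested genes at 0.05 are not given, so these ranges stand without a background. With sample quality weights 17 fell and 11 rose in 4T1, with 27.5% and 28.1% of all tested genes. E2f2 in 4T1, at 0.15 and not passing, turned to -0.059 with sample quality weights and lay between -0.10 (without sample 15) and 0.36 without 1 sample. Between the vehicle samples log2(TPM + 1) gave 4 higher and 8 lower genes at 0.001, where the main values were 3 and 14. Of all tested genes, 22% were higher and 16.4% lower in this setting, as compared to 20.4% and 19.6% in the main fit. The labels pair no samples, since each has a number of its own. With each 4 consecutive numbers taken as a replicate block, a grouping that the labels do not state and that was added after seeing the data, 7 genes were called in 4T1, 0 in 67NR, 12 in the interaction and 10 between the vehicle samples (9.00%, 0%, 7.72% and 26.4% of all tested genes). At 0.05 38 genes fell in 67NR, 12 rose and 13 fell in 4T1 and 29 were positive in the interaction, with 7.72%, 26.1%, 25.2% and 16.2% of all tested genes. Deviations from the group means within such sets correlated at 0.42, 0.064, 0.33 and 0.20 over genes for the 4T1 samples. They correlated from -0.061 to 0.073 for the 67NR samples and from -0.28 to 0.21 for the vehicle samples of both lines. In most 4T1 sets the 2 samples thus deviated together to some degree. As the labels do not state such sets, the main fits did not pair the samples. With 4 samples a group, smaller differences than those called can have been missed.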
